A study of Mus musculus with 8 samples.

Results

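Ryr2 and Cacna1c are a pair of long mouse genes whose transcripts carried dense SRSF3 signal in neonatal cardiomyocytes. They were chosen by measured iCLIP signal, so their height against the rest of the genome is described below and not tested. Their members are single-nucleotide crosslink positions on the minus strand of the mm9 genome: chromosome 13 from 11640001 to 12200000 (Ryr2, 560 kb) and chromosome 6 from 118530001 to 119150000 (Cacna1c, 620 kb). Replicate 1 listed 8510 such positions of 769652 in all, 4565 in Ryr2 and 3945 in Cacna1c. Replicate 2 listed 22983 of 2093525, 12214 in Ryr2 and 10769 in Cacna1c.

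The group used was iCLIP of SRSF3-GFP in cardiomyocytes of C57BL/6 pups at P0-1, with 2 replicates. Cells received 15 µg of modified mRNA encoding SRSF3 fused to green fluorescent protein with 21 µL of Lipofectamine 2000, and 48 h later 100 mJ of UV light at 254 nm. The bound protein was therefore the transfected fusion, added to cells that make their own SRSF3, and no control immunoprecipitation was used here. Whether the replicates came from separate cultures is not stated, so tests between them may measure technical spread alone. The series also holds 6 adult hearts, SRSF3 knockout and control, which are not analysed here.

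iCLIP crosslinks a protein to RNA and reads the nucleotide where reverse transcription stopped, next to the crosslink, and each independent stop is counted as 1 cDNA. SRSF3 is an SR protein, one of a family of RNA-binding proteins known for roles in splicing and in the export of mRNA. Ryr2 encodes the ryanodine receptor of heart muscle, the channel through which calcium leaves the sarcoplasmic reticulum. Cacna1c encodes the pore-forming subunit of the cardiac L-type calcium channel in the surface membrane. At each heartbeat calcium entering through the L-type channel opens ryanodine receptors, and the calcium they release drives contraction. Both genes are mostly intron, so a count over the whole gene takes in unspliced RNA wherever the protein meets it.

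No annotation of mm9 was used here, so the regions carry the gene names by position and no exon or intron was placed on them. Chromosome, strand and size were set beside another annotation. In GENCODE M21, on the other build GRCm38, Ryr2 (ENSMUSG00000021313.16) is on the minus strand of chromosome 13 and 553.8 kb long, and the covered span here ran over 559.0 kb in replicate 2. Cacna1c (ENSMUSG00000051331.15) is on the minus strand of chromosome 6 and 609.2 kb long, against a covered span of 615.7 kb. These spans were measured inside the chosen regions, whose edges bound them, so they are no check on the gene names. The Ryr2 transcript with the longest coding sequence has 105 exons, which make up 3.04% of its length, and that of Cacna1c has 48 exons and 1.30%. Markers of cardiomyocytes and other genes of calcium handling could not be measured without an annotation of this build. No sequence of the sites is shown for the same reason.

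Replicate 1 held 815414 cDNAs and replicate 2 held 2253688, a depth at which a window with no cDNA allows up to 3.68 and 1.33 cDNAs per 1000000 cDNAs of the library (CPM). cDNA counts follow the abundance of an RNA as well as binding to it, and in these bulk cultures fewer cells of a type and less RNA per cell cannot be told apart. Intervals below are at 95% and cover counting error only.

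Ryr2 took 4756 cDNAs in replicate 1, or 5833 CPM (Poisson interval 5668 to 6001), and 13119 in replicate 2, or 5821 CPM (5722 to 5922). Cacna1c took 4056 cDNAs in replicate 1, or 4974 CPM (4822 to 5130), and 11347 in replicate 2, or 5035 CPM (4943 to 5128). Both replicates thus gave each gene nearly the same share of the library, 0.583% and 0.582% for Ryr2 and 0.497% and 0.503% for Cacna1c. Per 10 kb of region, Ryr2 averaged 104 ± 0.145 CPM and Cacna1c 80.7 ± 0.692 CPM (SD, n = 2). The density of Ryr2 was 1.30 times that of Cacna1c in replicate 1 and 1.28 times in replicate 2.

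No difference between the replicates was detectable in either gene. The log2 ratio of replicate 1 to replicate 2 was 0.0028 for Ryr2 (interval -0.045 to 0.051) and -0.017 for Cacna1c (-0.070 to 0.034), with an adjusted p of 0.906 for both (two-sided exact binomial tests with library totals as the null share, Benjamini-Hochberg over both genes). Of all 10 kb windows with at least 50 cDNAs, 0.0934% were called between the replicates at a 5% false discovery rate. Of the 117 such windows in the regions, 56 in Ryr2 and 61 in Cacna1c, 0 were called (exact binomial test, smallest adjusted p = 0.425). Before adjustment 2 windows of Ryr2 and 3 of Cacna1c had a p under 0.05, and the share over all windows was 5.57%. The scatter of windows between the replicates gave a chi-square per degree of freedom of 1.22 in Ryr2 and 1.15 in Cacna1c.

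Every window of both regions was covered in both replicates. In Ryr2 the 56 windows ran from 32.0 to 334 CPM with a median of 84.8, a 10.4-fold range. The 62 windows of Cacna1c ran from 11.2 to 189 CPM with a median of 69.0, a 16.9-fold range. For comparison, the 237938 windows of 10 kb and strand with any cDNA had a median of 0.613 CPM, and 99% of them lay at or under 44.6 CPM. The window profiles of the replicates followed each other closely. Across the windows of Ryr2 their Spearman rho was 0.932 and across those of Cacna1c 0.963. These correlations describe windows of 1 gene, which share library and transcript.

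**Figure D1:**
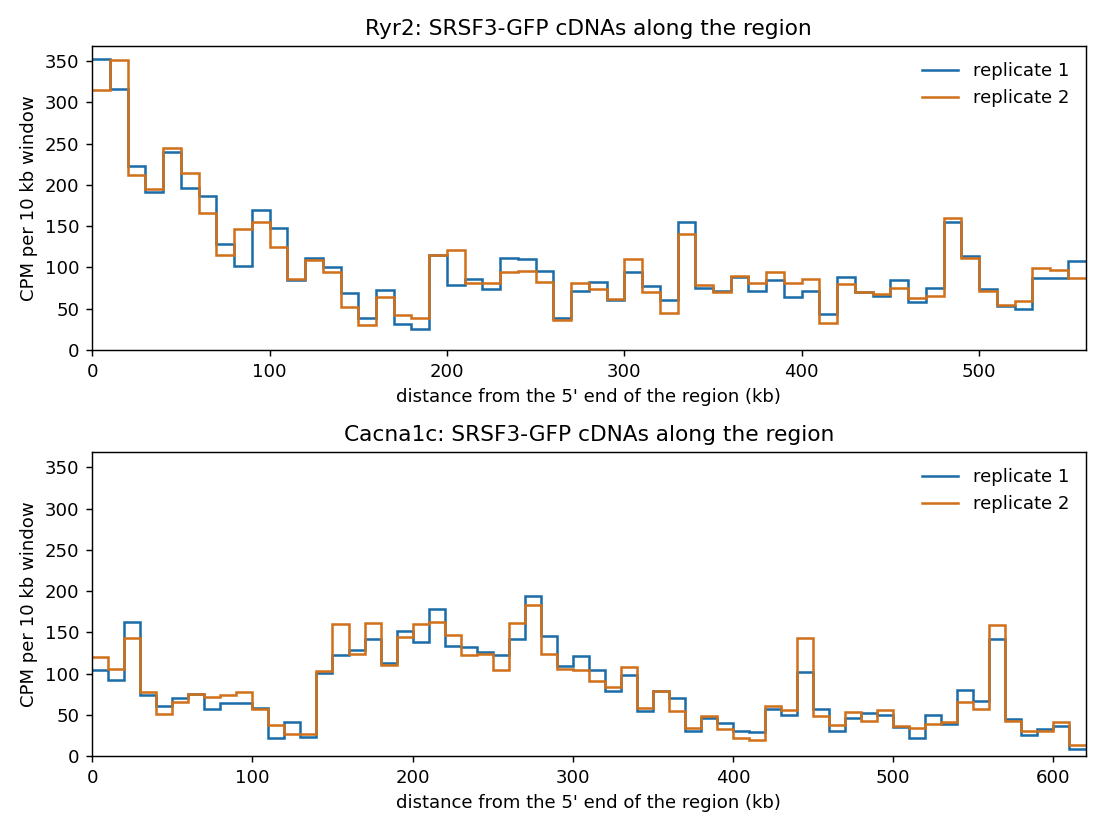
cDNAs per 1000000 of the library (CPM) in each 10 kb window of the minus strand, from the 5′ end (left) to the 3′ end of Ryr2 and Cacna1c, with a line for each replicate. Ryr2 starts at 334 CPM and runs between 37.6 and 157 CPM past 190 kb (replicate means), while Cacna1c is highest between 140 and 330 kb.

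The genes differed in where the signal lay along the transcript. Ryr2 was densest at its very start. Its first window, 12190001 to 12200000, held 352 CPM in replicate 1 and 315 CPM in replicate 2, and the second, 12180001 to 12190000, held 316 and 351 CPM. The window starting at 12150001 came next, with 240 and 245 CPM. These windows exceeded every Ryr2 window more than 70 kb from the 5′ end in both replicates.

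Over the first 70 kb Ryr2 averaged 243 ± 0.696 CPM per 10 kb (SD, n = 2). The next 120 kb averaged 89.2 ± 1.33, and the remaining 370 kb 82.5 ± 0.342. These stretches were drawn after the values were seen. The window starting at 12010001, 180 kb from the 5′ end, held 25.8 and 38.2 CPM, the window at 12040001 held 39.2 and 30.6, and that at 11930001, 260 kb from the 5′ end, held 39.2 and 35.9, the 3 lowest by the higher of the replicate values. Ryr2 thus had a steep front and, between 140 and 190 kb, windows with replicate means of 32.0 to 68.6 CPM. Past 190 kb the means ran from 37.6 to 157 CPM, with no steady fall toward the 3′ end.

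Cacna1c had its maximum inside the gene. The window from 118870001 to 118880000, 270 kb from the 5′ end, held 194 CPM in replicate 1 and 183 in replicate 2. By the lower of the replicate values, the windows at 118930001 and 118950001 followed, with 178 and 163 CPM and with 152 and 145 CPM. By their mean, 5 other windows came before the last of these, among them 119120001 in the first 30 kb with 153 CPM. The first window, 119140001 to 119150000, held 104 and 120 CPM. Density over the first 30 kb was 121 ± 2.11 CPM per 10 kb (SD, n = 2), over the next 110 kb 57.2 ± 1.83, over the 190 kb from 140 to 330 kb 131 ± 0.303, and over the last 290 kb 52.8 ± 0.764. The lowest windows were the last, 118530001 to 118540000, with 8.58 and 13.8 CPM, and those at 119010001 and 118730001, with 23.3 and 26.6 CPM and with 29.4 and 19.5 CPM.

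Cut into 5 equal stretches of 112 kb, Ryr2 held 39.0 ± 0.104% of its cDNAs in the first and 14.2 ± 0.272%, 15.4 ± 0.628%, 15.1 ± 0.440% and 16.3 ± 0.022% in the others (SD, n = 2). In Cacna1c, with stretches of 124 kb, the first held 19.0 ± 0.449% and the second the most, 30.2 ± 0.398%. The third stretch of Cacna1c held 26.4 ± 1.04%, and the last 2 held 12.4 ± 0.187% and 12.0 ± 0.0073%. The first stretch therefore stood apart in Ryr2, and the second and the third in Cacna1c.

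Both genes carried more signal toward the 5′ end. In Ryr2 the 280 kb nearest the 5′ end held 61.2% of the cDNAs of replicate 1 (2910 of 4756, Wilson interval 59.8% to 62.6%) and 60.9% of those of replicate 2 (60.1% to 61.8%). In Cacna1c the 310 kb nearest the 5′ end held 65.9% (2672 of 4056, 64.4% to 67.3%) and 65.8% (64.9% to 66.7%). The share was higher in Cacna1c, and the intervals of the genes did not overlap in either replicate. These intervals cover counting error only, while cDNAs clustered along the genes, so this is no test between the genes. Counted from the 5′ end, 25% of the cDNAs of Ryr2 were reached at 58.0 and 57.3 kb and 50% at 202 and 204 kb. In Cacna1c the same shares were reached at 162 and 159 kb and at 254 and 249 kb. The rank correlation of window CPM with distance from the 5′ end was alike, -0.453 and -0.445 over 56 windows of Ryr2 and -0.447 and -0.458 over 62 of Cacna1c.

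**Figure D2:**
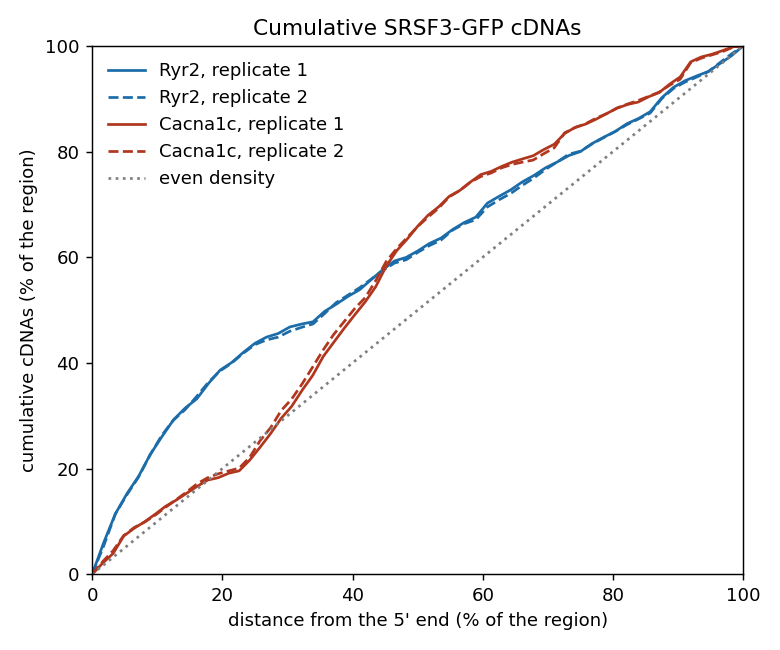
Cumulative share of the cDNAs of each gene against the distance from its 5′ end in percent of the region, with a line for each gene and replicate and a dotted line for even density. Ryr2 runs above even density from its start, whereas Cacna1c follows it at first and climbs steeply before its midpoint.

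Within the genes, density differed between neighbouring windows in steps. Of the 116 pairs of neighbouring windows, 7 showed at least a 2-fold higher density on the 3′ side in both replicates and 3 at least a 2-fold lower one. These pairs were picked for their values after these were seen. The largest was in Cacna1c, 140 kb from the 5′ end. Its window at 119010001 held 19 and 60 cDNAs, and the next, 119000001 to 119010000, held 82 and 232, which is 4.32 and 3.87 times as many. In Ryr2 the window at 12010001 held 21 and 86 cDNAs and the next, 12000001 to 12010000, held 94 and 260, a ratio of 4.48 and 3.02.

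These steps were then placed at 1 kb resolution. The 1 kb boundary that best split the bins into a low and a high level lay at 189 kb in Ryr2 and at 142 kb in Cacna1c. A further search over the next 10 kb of Cacna1c gave 147 kb. Such a search returns a boundary in any stretch, so it is no test that a step exists. In Ryr2 the 9 kb from 180 to 189 kb held 14 and 58 cDNAs, 23.8 ± 6.73 CPM per 10 kb, and the 11 kb from 189 to 200 kb held 101 and 288, 114 ± 2.52 CPM per 10 kb (SD, n = 2). In Cacna1c the 12 kb from 130 to 142 kb held 20 and 66 cDNAs, 22.4 ± 2.80 CPM per 10 kb. The next 5 kb, to 147 kb, held 86.7 ± 2.20, and the 13 kb after that 152 ± 21.5 CPM per 10 kb. By replicate these were 88.3 and 85.2, then 137 and 167 CPM per 10 kb. A smaller step lay 420 kb from the 5′ end of Cacna1c, where the window at 118730001 held 24 and 44 cDNAs and the next one 1.96 and 3.09 times as many.

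The lengths of introns were read on GRCm38, since no annotation of mm9 was used here. There the first introns of the Ryr2 transcript are 160.4 and 27.5 kb long, and the second ends 188.5 kb from the 5′ end of the gene. In Cacna1c the transcript with the longest coding sequence starts 88.4 kb into the gene. Its first intron ends at 138.9 kb, and the third, 272.3 kb long, runs from 143.8 to 416.1 kb. Counted from the 5′-most cDNA on mm9, the steps above lay at 188.1 kb in Ryr2 and at 138.7, 143.7 and 416.7 kb in Cacna1c, to the 1 kb of the bins for the first 3 and the 10 kb of the windows for the last. These steps were picked after their values were seen, and the one at 420 kb misses the 2-fold limit in replicate 1. The one at 147 kb came from the further search and not from the 2-fold limit. The first Ryr2 intron ends at 160.9 kb. The Ryr2 window that begins at 160 kb held 1.84 and 2.12 times the cDNAs of the one before, and the window after it 0.441 and 0.658 times as many. Near the Cacna1c transcript start, the window at 90 kb held 1 and 1.06 times as many as the one before. The other 5 steps that meet the limit in both replicates, at 330, 420 and 480 kb in Ryr2 and at 440 and 560 kb in Cacna1c, were not set beside introns. The distances belong to different builds, and whether the steps fall on exons was not tested.

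**Figure D3:**
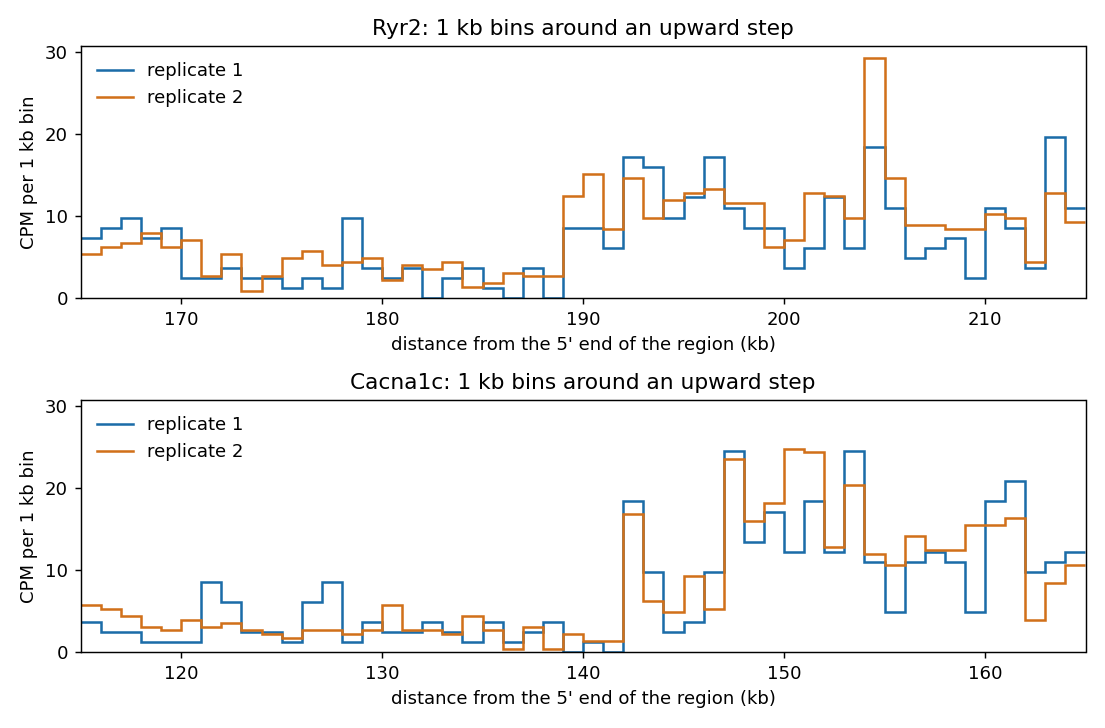
CPM in 1 kb bins of the minus strand against the distance from the 5′ end, for 50 kb of Ryr2 and 50 kb of Cacna1c, with a line for each replicate. The boundary that best split low from high density lay at 189 kb in Ryr2 and at 142 kb in Cacna1c, and a further search in Cacna1c gave 147 kb.

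The other steps that met the limit led into local peaks toward the 3′ end, except that at 420 kb in Ryr2. There the mean rose from 38.5 CPM at 11780001 to 84.1 in the next window, near the median of 84.8 over the gene. In Ryr2 the window from 11860001 to 11870000 held 155 and 140 CPM, and 25.4% and 25.9% of its cDNAs lay in the 1 kb from 11864001 to 11865000. The window from 11710001 to 11720000 held 155 and 159 CPM, with 19.8% and 19.8% of its cDNAs in a single 1 kb bin. In Cacna1c the window from 118580001 to 118590000 held 142 and 158 CPM, and its bin from 118583001 to 118584000, the strongest 1 kb of the gene, held 31 and 109 cDNAs, 26.7% and 30.5% of the window. The window from 118700001 to 118710000 held 102 CPM in replicate 1 and 144 in replicate 2. Its difference between the replicates had a p of 0.0042 and an adjusted p of 0.610 (exact binomial test, Benjamini-Hochberg over all windows). These peaks stood on intervening stretches that were still covered in both replicates.

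The 5′ boundary of both genes was sharp. In Ryr2 the 5′-most cDNA was at 12199095 in replicate 1 and at 12199117 in replicate 2, 22 nt apart. The 1 kb from 12198001 to 12199000 already held 50 and 86 cDNAs, and the window just outside, 12200001 to 12210000, held 0 in both replicates and in the merged track. In Cacna1c the 5′-most cDNA was at 119146548 in replicate 1 and at 119146678 in replicate 2, leaving more than 3 kb of the region empty. The 1 kb that holds these positions took 19 and 54 cDNAs. The window just outside, 119150001 to 119160000, held 0. Over 40 kb upstream, the minus strand held 0 and 5 cDNAs beside Ryr2 and 1 and 0 beside Cacna1c.

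At the 3′ end of Ryr2 the signal dropped inside the region, and a low level ran on past its edge. The last window, 11640001 to 11650000, held 108 and 87.4 CPM, and the window just outside, 11630001 to 11640000, still held 12.3 and 9.32 CPM. The 2 kb from 11645001 to 11647000, picked for their values, held 59 and 123 cDNAs. This is 362 and 273 CPM per 10 kb, with a mean of 317 ± 62.9 (SD, n = 2). Past this point the density fell within 1 kb, from 31 and 50 cDNAs in the bin 5 kb inside the edge to 3 and 10 in the next. It stayed low after that, with 19 and 51 cDNAs in the 5 kb from 11640001 to 11645000. In Cacna1c the last window held 7 and 31 cDNAs and the window just outside 1 and 0. There the bins 14, 9 and 4 kb inside the edge held 5 and 15, 3 and 7, and 1 and 1 cDNAs. The decline was uneven. The bin at 13 kb held 1 and 16 cDNAs, and those at 17 and 19 kb, further inside, held 0 and 6 and 2 and 2.

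**Figure D4:**
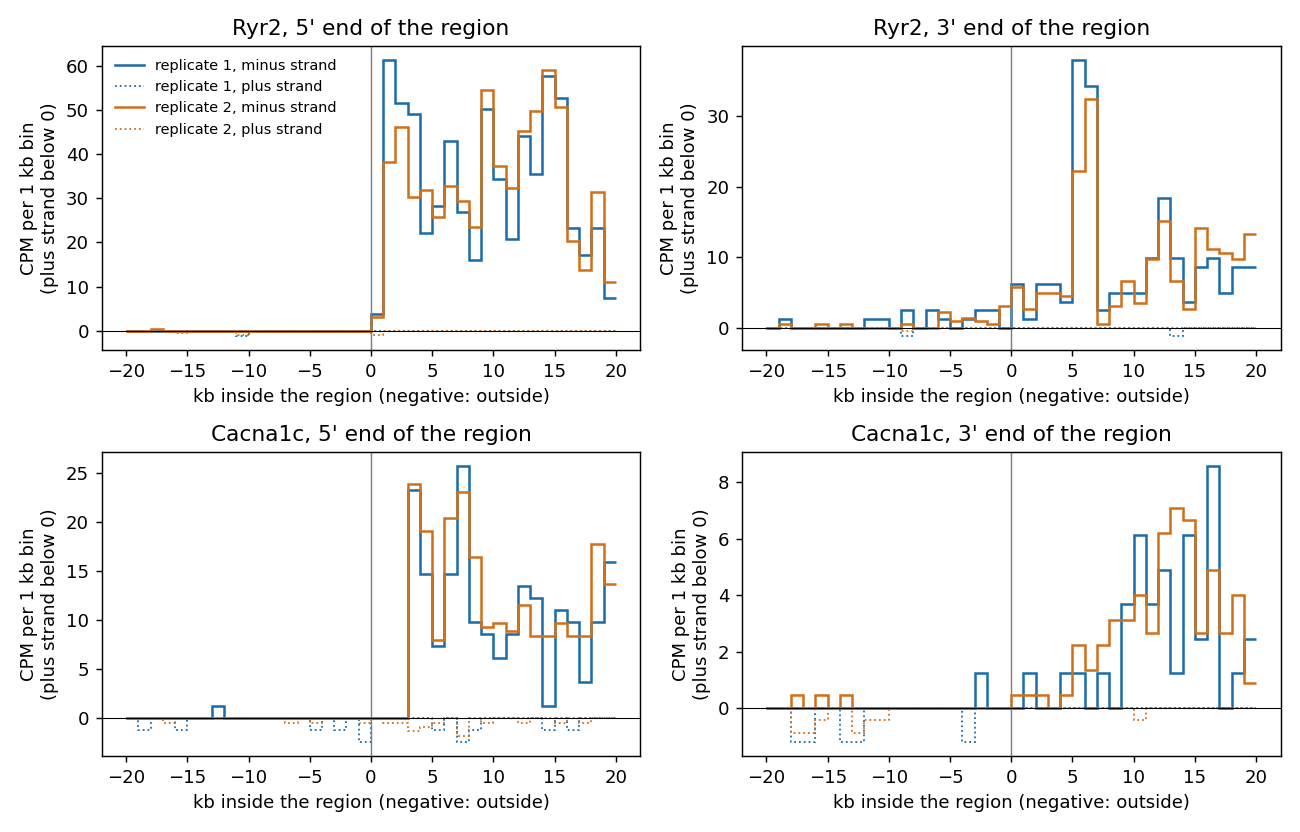
CPM in 1 kb bins within 20 kb of the 5′ and 3′ ends of each region, the minus strand drawn above 0 and the plus strand below, with a colour for each replicate. The minus-strand signal starts within 1 kb of the 5′ end of Ryr2 and 3 kb inside that of Cacna1c, and Ryr2 has a peak 5 to 7 kb inside its 3′ end.

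The signal was confined almost wholly to the coding strand. Of the cDNAs on either strand of Ryr2, 99.9% in replicate 1 (Wilson interval 99.7% to 99.9%) and 99.8% in replicate 2 (99.7% to 99.9%) were on the minus strand, and in Cacna1c 99.8% (99.6% to 99.9%) and 99.5% (99.4% to 99.7%). Of the plus-strand cDNAs of Cacna1c, 6 of 9 in replicate 1 and 21 of 52 in replicate 2 lay in the first 30 kb.

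Single positions were rarely hit more than once. In Ryr2 the share of positions with just 1 cDNA was 96.3% in replicate 1 and 93.3% in replicate 2, and in Cacna1c 97.3% and 95.04%. Positions were ranked by the lower of their replicate counts, ties by the count in the merged track. In Ryr2 the first was 12189426, 10.6 kb from the 5′ end, with 2 and 4 cDNAs, followed by 11796945 and 12198537 with 2 and 2 each, the last tied with 11854274. In Cacna1c it was 118870847, in the strongest window, with 3 and 5 cDNAs, followed by 118726463 with 2 and 4 and 118941569 with 3 and 2. No position held more than 0.084% of the cDNAs of its gene in either replicate. The signal of these genes was therefore made of many weakly covered positions, and no single position made up a window.

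The same nucleotide was listed in both replicates for 419 positions of Ryr2, 9.18% of replicate 1 (Wilson interval 8.37% to 10.1%) and 3.43% of replicate 2. For Cacna1c it was 295, 7.48% of replicate 1 (6.70% to 8.34%) and 2.74% of replicate 2. Replicate 2 listed 2.18% of all nucleotides of the Ryr2 region and 1.74% of the Cacna1c region. Counting a replicate 2 position within 10 nt as a match gave 56.8% in Ryr2 and 49.7% in Cacna1c. Of all nucleotides of the regions, 31.1% in Ryr2 and 27.2% in Cacna1c lay within 10 nt of a replicate 2 position. The shares over all nucleotides ignore that both replicates are dense in the same windows. How much of either match comes from shared density was not tested.

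Positions with several cDNAs recurred in a minority of cases. Of the 19 positions of Ryr2 with 3 to 4 cDNAs in replicate 1, 6 were listed in replicate 2, 31.6% (Wilson interval 15.4% to 54.0%), and of the 5 in Cacna1c 2 were. Over the whole series, without the mitochondrial genome and the 10 strongest windows, 62.4% of positions with 3 to 4 cDNAs recurred (702 of 1125, 59.5% to 65.2%). Of the positions with 1 cDNA, 8.56% recurred in Ryr2 and 7.29% in Cacna1c, beside 3.33% over that set. With 2 cDNAs the shares were 24.5% in Ryr2 (37 of 151), 12.9% in Cacna1c (13 of 101) and 14.6% over the set. Ryr2 thus stood above the whole-series set at 1 and 2 cDNAs and below it at 3 to 4, where the share rests on 19 positions. Recurrence also rises with local coverage, which is dense in both genes by choice. No share at equal coverage was computed, so whether the difference is a trait of the genes was not tested. In Cacna1c the 5 positions give an interval of 11.8% to 76.9%, which includes that of the set.

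The merged track adds libraries that have no sample of their own in the labels. Its header names 5 libraries. The 1138453 cDNAs left after subtracting both replicates are referred to here as the other libraries. Ryr2 had 3938 of their cDNAs, 3459 CPM against 5824 CPM in the replicates together, a log2 ratio of -0.75 (interval -0.80 to -0.70). Cacna1c had 2909, or 2555 CPM against 5019 CPM, a log2 ratio of -0.97 (-1.03 to -0.92). Per cDNA sequenced, the replicates thus held 1.68 times as much Ryr2 and 1.96 times as much Cacna1c as the other libraries. The genes were chosen for signal in the replicates and the merged track, so these ratios are a description and no test of them is given. They compare libraries, not conditions, and the sources used here do not describe the other libraries.

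Over all windows with at least 50 cDNAs, 13.4% were called lower in the other libraries at a 5% false discovery rate and 14.5% higher. In Ryr2 50 of the 56 windows were called lower and 0 higher, and in Cacna1c 54 of the 61 tested were lower and 0 higher (two-sided exact binomial test against the totals, Benjamini-Hochberg over all 21841 windows). These calls draw on the values behind the choice of the genes and rest on counting error alone, so their number is given as a description. The median log2 ratio was -0.83 over the windows of Ryr2 and -0.98 over those of Cacna1c, beside -0.12 over all windows. The lowest ratios among called windows of Ryr2 were -1.71 at 11830001 and -1.64 at 11640001, the last window. In Cacna1c they were -2.57 at 118550001 (interval -4.05 to -1.39) and -2.40 at 118620001 (-3.56 to -1.43), both within 100 kb of the 3′ end. These rest on 6 and 9 cDNAs of the other libraries. The window at 118610001, beside the second, had -0.49 and was not called.

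The ratio differed along the genes. In Ryr2 it was -0.58 in the first 112 kb (interval -0.66 to -0.50) and -0.98 in the last 112 kb (-1.12 to -0.85). In Cacna1c it was -0.77 in the first 124 kb (-0.90 to -0.65) and -1.32 in the last 124 kb (-1.51 to -1.14). In the other libraries the 5′ part held 67.0% of the Ryr2 cDNAs in the first 280 kb (Wilson interval 65.6% to 68.5%) and 68.7% of those of Cacna1c in the first 310 kb (67.0% to 70.3%). The interval for Ryr2 lies above that of both replicates, and the one for Cacna1c lies above that of replicate 2 and overlaps that of replicate 1. Between the replicates the log2 ratios were 0.0083 and 0.00015 for the first and last stretch of Ryr2 and -0.066 and -0.019 for those of Cacna1c, each with an interval that includes 0. No trend along the gene was tested beyond these intervals.

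**Figure D5:**
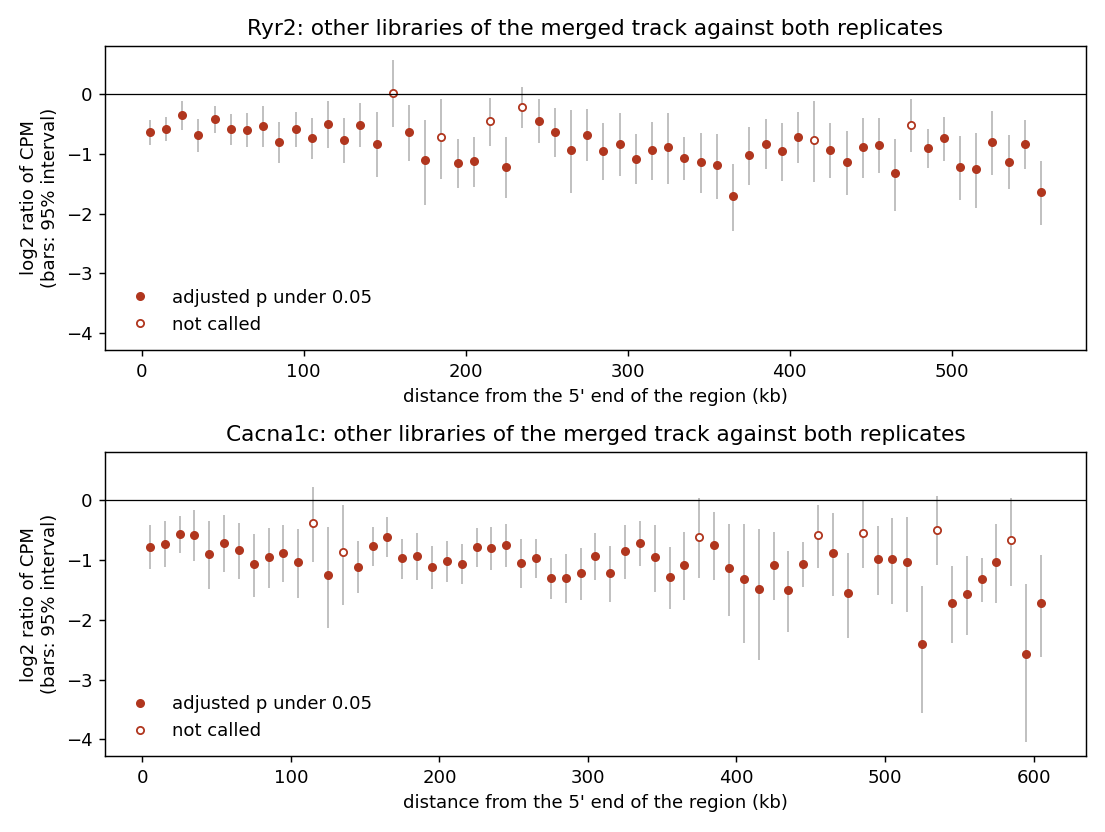
Log2 ratio of CPM in the other libraries of the merged track to CPM in both replicates together, per 10 kb window from the 5′ end, with 95% intervals for counting error. Filled points passed an adjusted p of 0.05, 50 of 56 in Ryr2 and 54 of 61 in Cacna1c, all below 0.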

How the data were processed

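iCLIP of SRSF3-GFP was analysed in 2 replicates, grouped by the labels. The authors deposited a signed score for each covered nucleotide: its absolute value counts cDNAs, negative values mark the minus strand, and no depth scaling was applied. The genome is mm9 and the annotation Ensembl 59, per the file headers. Bowtie 0.10.1 is named as a tool by the submitters' processing notes. How duplicate and multiply matching reads were treated was not stated. Since the values are signed, absolute values served as the counts that the planned tests need.

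Counts were summed over the regions, over 10 kb windows per strand and over 1 kb bins, and divided by the library total (CPM). Windows with at least 50 cDNAs were compared genome-wide by a two-sided exact binomial test, with Benjamini-Hochberg adjustment over all of them. Intervals were Wilson for shares, exact Poisson for counts and exact binomial for ratios, at 95%, and the limit of a count of 0 was 3 cDNAs. SciPy 1.17.1 was used. Of the procedures, the window test was run on simulated counts, drawn with binomial error and planted changes. Those counts held no further spread between libraries, so they cannot show how the test behaves with it. The boundary search and the recurrence of positions were not simulated.

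Members, regions and lists were chosen with earlier results of these data known. Windows named were the first, last and adjoining ones, the 3 highest by the lower replicate and 3 lowest by the higher replicate, and those with the lowest called ratios. Positions named were the 3 with the most cDNAs in the lower replicate. Steps, peaks and stretches were picked after their values were seen.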

Additional observations from a re-analysis of the deposited data

Results flagged for a closer look

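Plus-strand cDNAs lay outside the comparisons, which used the minus strand, and exceeded the 3 cDNAs that a count of 0 allows. The Ryr2 region held 6 in replicate 1 and 25 in replicate 2, and the Cacna1c region 9 and 52. In Cacna1c the first 30 kb held 6 and 21 of them and the 40 kb upstream of the region held 8 and 7, where the other libraries of the merged track held 44 and 30. The source of these cDNAs was not tested.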

How the results depend on the processing

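No paired analysis was possible because only the iCLIP group was analysed and replicate numbers are shared with heart samples that are not used here. Leaving out either replicate gave 5821 to 5833 CPM for Ryr2 and 4974 to 5035 CPM for Cacna1c, 60.9% to 61.2% and 65.8% to 65.9% of cDNAs in the 5′ part, and 88 to 104 windows called lower in the other libraries (88 of 105 tested without replicate 2, where 18.6% of all windows were called lower, and 104 of 117 without replicate 1, with 15.4%). Counting each position once gave 5883 and 5135 per 1000000 positions, 65.6% in the 5′ part of Cacna1c and a rank correlation of -0.463 for Ryr2. Library totals without the mitochondrial genome and the 10 strongest windows gave 6086 and 5227 CPM. Without the first and last window the 5′ share was 59.7% in Ryr2 and 65.2% in Cacna1c, and without the strongest window 58.7% and 64.5%. The rank correlation was -0.418 and -0.435 with 5 kb windows and -0.479 and -0.463 with 20 kb windows. Matching within 10 nt gave 56.8% and 49.7% of replicate 1 positions. These values from other counting, scaling or windows differed from those reported by more than the spread between the replicates. The 10 nt match lay outside the interval of the exact match, and none of these changed direction. With each position counted once, the 5′ share of Ryr2 (60.9%) and the rank correlation of Cacna1c (-0.449) stayed within that spread. With windows of at least 20 or 100 cDNAs, or of 5 or 20 kb, 0 windows were called between the replicates (exact binomial test). Chosen after seeing the data, a median log2 ratio of 0 over all windows, a shift of 0.12, gave 95 of 117 windows called lower (9.65% of all windows) and log2 ratios of -0.63 for Ryr2 and -0.86 for Cacna1c. In windows with few cDNAs, depth limits what can be called.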
